A study of Mus musculus with 2 samples.

Results

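The 10 genes described here encode the Toll-like receptors that sense nucleic acids inside endosomes (Tlr3, Tlr7, Tlr8, Tlr9 and Tlr13), their chaperone (Unc93b1) and the endolysosomal nucleases that make or remove their ligands (Rnaset2a, Rnaset2b, Pld3 and Pld4). They were taken by name from the 31053 genes of a table of unique molecular identifiers (UMIs, each counting 1 captured transcript), and all 10 were in it with at least 54 UMIs. The cells came from the aortic arch and thoracic aorta of Apoe-/- mice, which lack apolipoprotein E and develop atherosclerotic plaques, after 4 weeks of western diet. The mice received weekly nt-LNA at 30 mg/kg or weekly saline, and both groups shared the Apoe-/- genotype and the diet. LNA usually stands for locked nucleic acid, a modified nucleotide used in oligonucleotides, and the labels do not spell out nt. The sources used here state no age, sex or number of mice per library. Live CD45+ CD3- cells, which are leukocytes without the T cell receptor complex on their surface, were sorted and sequenced from the 3′ end of their transcripts, with 1 library of 4871 cells from nt-LNA mice and 1 library of 2742 cells from saline mice.

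The receptors of this group sit in endosomes and lysosomes, where they meet nucleic acid that a cell has taken up. Tlr3 binds double-stranded RNA, Tlr7 and Tlr8 respond to single-stranded RNA and its breakdown products, Tlr9 binds DNA with unmethylated CpG, and mouse Tlr13 recognises a stretch of bacterial ribosomal RNA. Unc93b1 carries these receptors from the endoplasmic reticulum to endosomes. Rnaset2 enzymes are lysosomal ribonucleases that cut RNA into pieces that Tlr7 and Tlr8 can bind, whereas Pld3 and Pld4 are exonucleases that trim single strands from the 5′ end and so remove ligands.

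The deposited counts add up all cells of a cluster, nt-LNA and saline alike, for 20 clusters, so no level could be split by treatment and no level had a replicate. Levels are given as CPM, the UMIs of a gene scaled to a total of 1000000 UMIs per cluster, with an exact Poisson 95% interval in parentheses, which covers counting error only. A ratio divides the CPM in a cluster by the average over the remaining 19. Since the clustering used the expression of these cells, the levels are descriptions without a test. In such sums, fewer cells with a transcript and less transcript per cell cannot be told apart.

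The table held 70206506 UMIs of 7613 cells, and a cluster had between 212515 and 12985745 of them. The depositors named 9 clusters Macrophages, 4 B cells, 6 T cells and 1 NK cells, although the sample titles speak of macrophages and the sort took CD3- cells. Marker genes gave narrower names for some of them. Cluster 18 was plasmacytoid dendritic cell-like, with 2200 CPM of Siglech, a surface lectin of those cells, and held only 59 cells. Cluster 15 was nonclassical monocyte-like, with 291 CPM of Cd300e and 322 CPM of Ace. Cluster 17 was type 1 dendritic cell-like, with 224 CPM of the chemokine receptor gene Xcr1, cluster 7 was neutrophil-like, with 43768 CPM of S100a8, and cluster 8 was mature dendritic cell-like, with 230 CPM of Fscn1. Cluster 8 also had 1840 CPM of summed type 2 dendritic cell markers, against 1347 CPM of summed mature dendritic cell markers. Cluster 1 was B cell-like, cluster 4 plasma cell-like, cluster 3 NK cell-like, cluster 6 proliferating cell-like and clusters 11 and 16 group 2 innate lymphoid cell-like. Cluster 11 took that name from Il5, Arg1 and Areg, but its first leading gene by fold was Il17a, which is not in that list. Cluster 4 also had 15276 CPM of summed B cell markers, against 12376 CPM in cluster 1, and 5823 CPM of summed plasma cell markers. The other clusters stay without a marker name, among them clusters 0 and 10, both deposited as Macrophages. Cluster 0, the largest, had 1965 CPM of C1qa, and its 10 leading genes by fold held the smooth muscle genes Actg2, Lmod1, Myh11 and Cnn1 and the basophil genes Mcpt8 and Prss34. The part of RNA from those cells in its levels was not tested. Cluster 10 had 2360 CPM of Spp1. In clusters 2, 5, 14 and 16, mitochondrial genes took 10.1%, 7.24%, 11.2% and 8.42% of UMIs, and their cells averaged 2296, 1278, 3935 and 1897 UMIs. The B cell gene Cd79a had between 84.9 and 674 CPM in clusters outside those named B cells, against 3376 CPM in cluster 1. The part of RNA from other cells in the low levels below was not tested.

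Rnaset2a and Rnaset2b are near-identical copies on mouse chromosome 17, and their sequences bear on how far their counts can be told apart. In GENCODE M21, their first transcripts are 1793 and 1783 bases long and 99.1% identical, with 7 substitutions and 10 gap columns. The last 30 bases of each, next to which a 3′ library reads, are given 5′ to 3′ with the differing bases in capitals. These are the substitutions G1765T and G1775A, counted from 1 at the 5′ end of the Rnaset2a transcript, with the base of Rnaset2a first.
Rnaset2a: aGctcttcaatGaagtatatgtctgctctg
Rnaset2b: aTctcttcaatAaagtatatgtctgctctg
Of 351 windows of 150 bases in the last 500 bases of Rnaset2a, 82 (23.4%) also occur without a change in Rnaset2b. The sources used here do not state how reads were shared between the copies, so the split between them is uncertain.

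**Figure D1:**
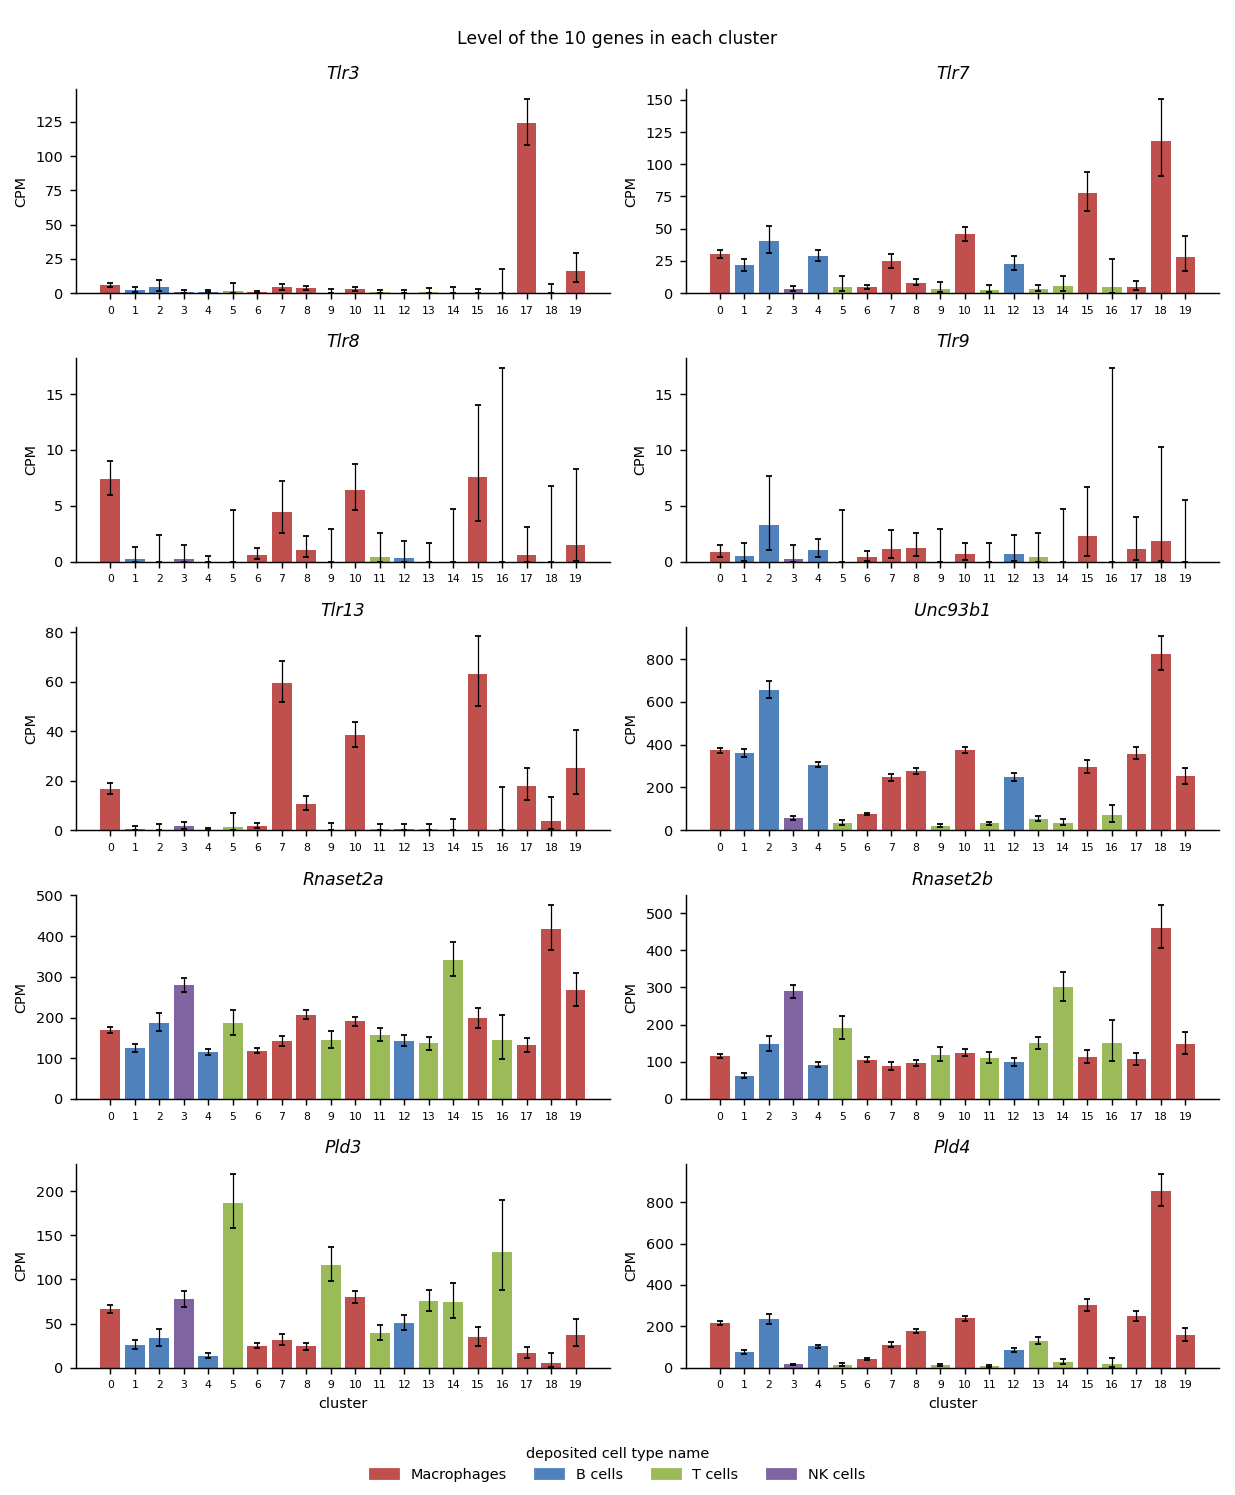
Each panel plots the level of 1 gene in CPM (y axis, linear, its own scale per panel) in each of the 20 clusters (x axis), coloured by the deposited cell type name, with exact Poisson 95% intervals as error bars. Cluster 18 is highest for Tlr7 at 118 CPM, Unc93b1 at 825 CPM and Pld4 at 857 CPM, cluster 17 for Tlr3 at 124 CPM, and cluster 5 for Pld3 at 187 CPM.

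Tlr7 had its highest levels in the plasmacytoid dendritic cell-like and nonclassical monocyte-like clusters, was found in the neutrophil-like cluster, in clusters 0 and 10 and in the B cell clusters, and was low in the clusters deposited as T and NK cells. Tlr7 reached 118 CPM (90.8 to 151) in cluster 18, from 64 UMIs, 6.13-fold above the mean of the others. Cluster 15 followed with 77.7 CPM (63.4 to 94.3) and cluster 10 with 45.9 CPM (40.8 to 51.6). The intervals of clusters 18 and 15 overlapped, so their order is not resolved, while that of cluster 15 lay above that of cluster 10. Cluster 2 had 40.6 CPM, cluster 0 had 30.2 CPM, cluster 4 had 29.1 CPM and cluster 19 had 28.3 CPM. Clusters 7, 12 and 1 had 24.6, 22.9 and 21.6 CPM of Tlr7. These 7 clusters formed a run of overlapping intervals that ended above cluster 8, the mature dendritic cell-like cells, at 8.07 CPM (5.89 to 10.8). In the remaining 9 clusters, which hold the T and NK cell clusters, the proliferating cell-like cluster 6 and the type 1 dendritic cell-like cluster 17, Tlr7 lay between 2.72 and 5.13 CPM.

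Tlr8, the neighbour of Tlr7 on the X chromosome and its closest relative, was sparse, with 180 UMIs in all, and 97.8% of them were in clusters deposited as Macrophages. Cluster 15 had 7.62 CPM of it (3.65 to 14.0) and cluster 0 had 7.39 CPM (5.99 to 9.03). Cluster 10 had 6.42 CPM (4.59 to 8.75), and cluster 7 had 4.42 CPM (2.53 to 7.19). These intervals overlap, so the order of the 4 is not resolved. Tlr8 had no UMI in 8 clusters, cluster 18 among them. At the depth of cluster 18, a count of 0 allows up to 3 counts, or 5.53 CPM, so it does not exclude a level like that of cluster 7. Of the UMIs of the pair, Tlr7 took 100% in cluster 18 (64 of 64, exact Clopper-Pearson 95% interval 94.4 to 100%) and 100% in cluster 4 (203 of 203, 98.2 to 100%). It took 80.3% (76.5 to 83.8%) in cluster 0, the lowest of the clusters with over 100 UMIs of the pair.

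Tlr3 had 1 main source, the type 1 dendritic cell-like cluster. Cluster 17 held 222 of the 401 Tlr3 UMIs, at 124 CPM (108 to 142), 52.1-fold above the mean of the other clusters and 29.6-fold above the mean of the other Macrophages clusters. Cluster 19, with 27 cells and no marker name, came next at 16.4 CPM (8.18 to 29.3), and cluster 0 had 5.78 CPM. Every other cluster had at most 4.58 CPM of Tlr3, and clusters 9, 14, 15, 16 and 18 had no UMI. An antisense gene, Gm45542, overlaps Tlr3 in GENCODE M21, and the sources used here do not state whether the counting used strand. The clusters high in Tlr3 and those high in Tlr7 were thus different ones. Cluster 17 had 5.03 CPM of Tlr7, and clusters 18 and 15, highest in Tlr7, were at 0 for Tlr3. Over the 20 clusters the Pearson correlation of the pair's log2(CPM + 0.5) was 0.06.

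Tlr13 was highest in the monocyte-like and neutrophil-like clusters. It had 63.2 CPM (50.4 to 78.4) in cluster 15 and 59.7 CPM (52.0 to 68.3) in cluster 7, which overlap, and 38.5 CPM (33.8 to 43.7) in cluster 10. Clusters 19, 17, 0 and 8 had 25.3, 17.9, 16.8 and 10.8 CPM. The plasmacytoid dendritic cell-like cluster had 3.68 CPM from 2 UMIs, and every cluster deposited as B, T or NK cells had at most 1.63 CPM. In all, 98.3% of its 902 UMIs were in Macrophages clusters. Tlr13 and Tlr8 had similar profiles over the clusters (Pearson correlation 0.88). They differed in cluster 0, which was level with cluster 15 for Tlr8 and below it for Tlr13.

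Tlr9 could hardly be placed at this depth. Its 54 UMIs gave at most 3.27 CPM (1.06 to 7.64), in the low-UMI B cell cluster 2 from 5 UMIs, and 6 clusters had none. Cluster 18 had 1 UMI, or 1.84 CPM, and cluster 15 had 3 UMIs, or 2.29 CPM. All 19 pairs of neighbours in the order of Tlr9 levels had overlapping intervals, so no order is given.

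Unc93b1 was found in every cluster and, in CPM, split them in 2 sets. It had 825 CPM (751 to 905) in cluster 18, from 448 UMIs, and 658 CPM (617 to 699) in cluster 2, against 375 CPM (360 to 390) in cluster 10 as the next. Clusters 0, 1 and 17 had 373, 361 and 358 CPM. The other 6 clusters of the upper set, which are 4, 15, 8, 19, 12 and 7, lay between 248 and 306 CPM. The lower set had 76.0 CPM (70.8 to 81.4) in the proliferating cell-like cluster 6, 57.5 CPM in the NK cell-like cluster 3, and between 20.8 and 70.6 CPM in the 6 clusters deposited as T cells. The gap between cluster 7, at 248 CPM (232 to 264), and cluster 6 parts all B cell clusters and the other Macrophages clusters from the T and NK cell clusters. Per cell, cluster 18 was again highest, at 7.59 UMIs of Unc93b1, while cluster 2 had 1.51 and cluster 10 had 6.52. Cluster 6 had 1.67 per cell, above cluster 2 of the upper set, so the split did not hold on that scale. The highest of the T and NK cell clusters per cell was cluster 13, at 0.482.

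The ribonucleases were spread more evenly than the receptors. Rnaset2a lay between 115 CPM (107 to 123), in the plasma cell-like cluster 4, and 418 CPM (366 to 476), in cluster 18, and was over 2-fold above the mean of the others only in cluster 18. Cluster 14 had 341 CPM (302 to 385), cluster 3 had 280 CPM (263 to 298) and cluster 19 had 267 CPM. Rnaset2b had the same 3 clusters on top, cluster 18 at 461 CPM (405 to 521), cluster 14 at 300 CPM (263 to 341) and then cluster 3 at 290 CPM (273 to 308). The lowest Rnaset2b level was 62.4 CPM (55.2 to 70.4), in the B cell-like cluster 1. In CPM the NK cell-like cluster 3 was thus among the 3 highest for both ribonuclease genes, but per cell it was rank 10 for Rnaset2a, with 1.64 UMIs, and rank 6 for Rnaset2b, with 1.69. Per cell, cluster 19 led for Rnaset2a with 6.63 UMIs, above 3.85 in cluster 18. Of the UMIs assigned to either copy, Rnaset2a took 57.4% (56.7 to 58.1%) over all cells. Its share was 68.1% (65.8 to 70.3%) in cluster 8 and 66.6% (63.2 to 69.9%) in cluster 1, against 47.6% (43.0 to 52.2%) in cluster 18 and 49.2% in cluster 3. The part of read assignment between the copies in these shares was not tested.

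The exonucleases Pld3 and Pld4 had opposing profiles in CPM (Pearson r -0.64 over the 20 clusters). Pld4 had 857 CPM (781 to 938) in cluster 18, from 465 UMIs, 7.39-fold above the mean of the others. Cluster 15 followed with 302 CPM (273 to 333), and clusters 17, 10, 2 and 0 had 248, 238, 235 and 215 CPM. These are the plasmacytoid dendritic cell-like, monocyte-like, type 1 dendritic cell-like clusters, clusters 10 and 0, deposited as Macrophages, and 1 B cell cluster. Clusters 8 and 19 had 176 and 156 CPM, cluster 7 had 111 CPM, and the B cell clusters 4, 12 and 1 had 102, 83.5 and 74.6 CPM. Clusters 11, 9, 5 and 3 had 8.16, 11.2, 11.4 and 15.0 CPM, and clusters 16 and 14 had 18.8 and 25.7 CPM. Cluster 13, deposited as T cells, stood apart from the other T cell clusters with 131 CPM (116 to 147), from 285 UMIs. Its Unc93b1 level was 54.2 CPM and its Tlr7 level 3.21 CPM, so Pld4 there had 242 UMIs per 100 of Unc93b1, against 104 in cluster 18, 102 in cluster 15 and 20.7 in cluster 1.

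The lowest Pld3 value was in cluster 18, where Pld4 was highest. Cluster 18 had 3 UMIs, or 5.53 CPM (1.14 to 16.2), next to 13.6 CPM (11.0 to 16.6) in cluster 4 and 16.2 CPM (10.9 to 23.3) in cluster 17. These intervals overlap, so their order is not resolved. The opposition did not hold in every cluster, and cluster 10 was rank 4 in CPM for both genes. The highest Pld3 levels in CPM were in clusters deposited as T cells, cluster 5 at 187 CPM (158 to 220), cluster 16 at 132 CPM (87.6 to 190) and then cluster 9 at 116 CPM (98.0 to 137). Cluster 10 followed with 80.1 CPM (73.2 to 87.5), cluster 3 with 77.3 CPM and cluster 0 with 66.6 CPM. The 3 leading clusters had few UMIs per cell, and the order depends on the scale. Per cell, clusters 5, 16 and 9 had 0.239, 0.250 and 0.403 UMIs of Pld3, below 1.39 in cluster 10, 0.926 in cluster 19 and 0.919 in cluster 0, and the ratio of cluster 5 over the mean of the others was 0.539 on that scale. Cluster 18 had the lowest value of the 20 on both scales, at 0.0508 UMIs of Pld3 per cell.

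**Figure D2:**
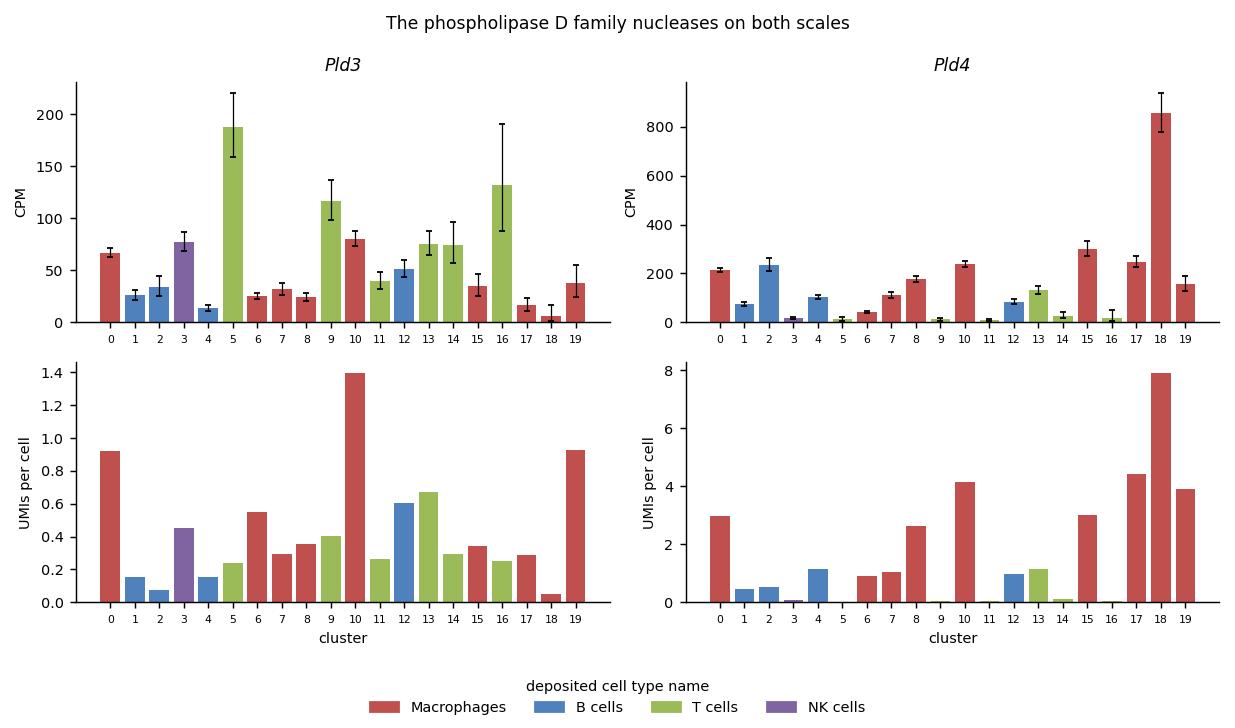
Levels of Pld3 (left) and Pld4 (right) in the 20 clusters (x axis), in CPM with exact Poisson 95% intervals (top) and in UMIs per cell (bottom), coloured by deposited cell type name. Cluster 18 leads for Pld4 on both scales, at 857 CPM and 7.88 UMIs per cell, while for Pld3 cluster 5 leads in CPM (187) and cluster 10 in UMIs per cell (1.39).

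As a share of the UMIs of the pair, which does not depend on that scale, Pld4 took 74.3% (73.6 to 75.1%) over all cells. It took 99.4% in cluster 18 (465 of 468, 98.1 to 99.9%), 93.9% in cluster 17 and 89.8% in cluster 15. The B cell clusters 4 and 2 had 88.2% and 87.6%, and clusters 0 and 10 had 76.3% and 74.8%. In the T and NK cell clusters other than 13 the share of Pld4 was between 5.73% (2.65 to 10.6%), in cluster 5, and 25.6% (16.4 to 36.8%), in cluster 14. Cluster 13 had 63.5% (58.8 to 67.9%), clear of them.

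**Figure D3:**
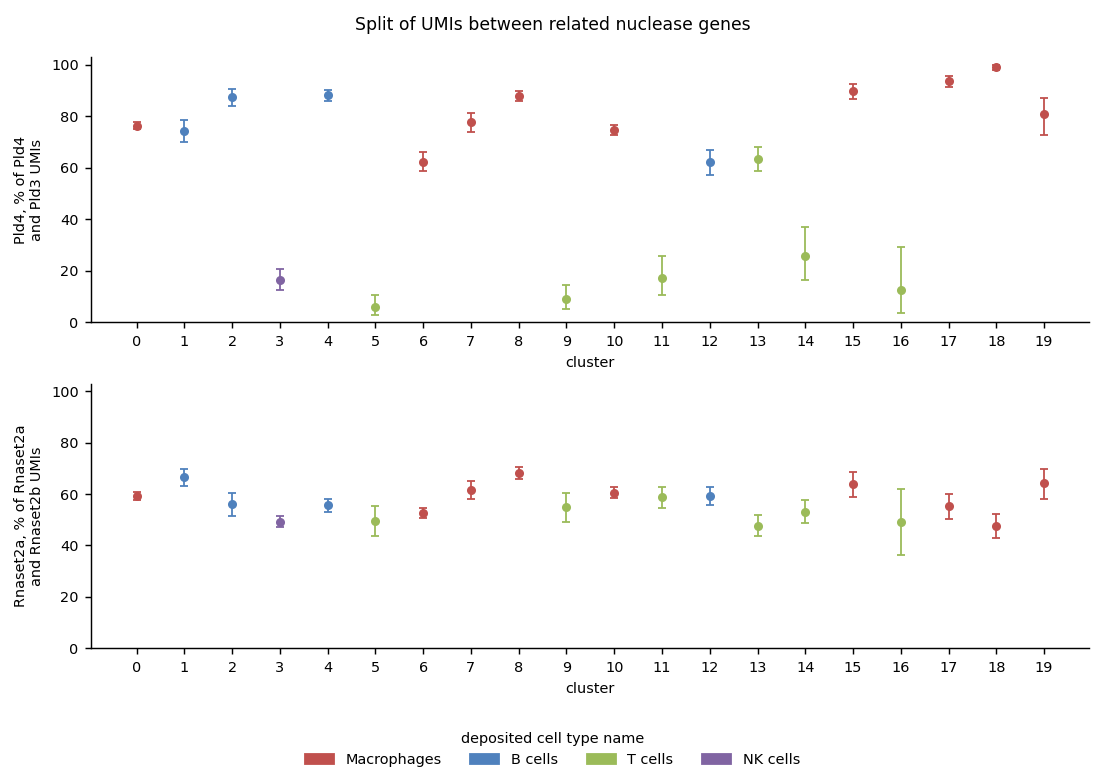
Share of UMIs, in percent with exact Clopper-Pearson 95% intervals, that the first gene of each pair takes in each of the 20 clusters (x axis). The share of Pld4 runs between 5.73% in cluster 5 and 99.4% in cluster 18, while that of Rnaset2a stays between 47.6% in cluster 18 and 68.1% in cluster 8.

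Counted together, 6 of the 10 genes had a CPM over 2-fold above the mean of the other clusters in cluster 18, which are Tlr7, Tlr9, Unc93b1, Rnaset2a, Rnaset2b and Pld4. Of all 14202 genes with at least 20 UMIs, 9.57% were that much higher there. As counted, the other 4 were over 2-fold lower, where 36.2% of all genes were, but Tlr3 and Tlr8 had no UMI there. With a count of 0 read as 3 counts, a reading chosen after seeing the data, the lower members were 2, Tlr13 and Pld3 (14.9% of all genes). On that reading Tlr3 and Tlr8, which were not detected, could not be called over 2-fold lower. Cluster 15 had 5 of the 10 over 2-fold higher (background 7.46%), which are Tlr7, Tlr8, Tlr9, Tlr13 and Pld4, and 1 over 2-fold lower, Tlr3 (29.4%). Cluster 10 had 2 higher (7.37%), Tlr8 and Tlr13, and 1 lower (23%). The call of Tlr9 rests on 1 UMI in cluster 18 and on 3 in cluster 15. The median ratio of the 10 genes was 2.44 in cluster 18, 1.64 in cluster 15 and 1.49 in cluster 10, against 0.753, 0.779 and 0.799 over all those genes. With a count of 0 read as 3 counts, the median of the 10 in cluster 18 was 2.95, which is an upper bound. The rise comes from Tlr8, with no UMI, being read as 5.53 CPM against a mean of 1.62 CPM in the other clusters. The median over all those genes was not recomputed in this way.

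Among the other clusters deposited as Macrophages, clusters 7 and 19 each had 2 of the 10 higher (7.28% and 9.06% of all genes) and 1 lower (25.7% and 28.8%). The 1 in cluster 19 was Tlr9 at no UMI, and none was lower there with 0 read as 3 counts (12.7%). Cluster 0 had 1 higher (8.21%), Tlr8, and none lower (8.18%), and cluster 17 had 1 higher (6.24%), Tlr3, and 3 lower (36.2%). Cluster 8 had none higher (6.26%) and 3 lower (25%). Cluster 6 had none higher (8.32%) and 8 lower (28.2%), the most of the 20 clusters. Of the B cell clusters, cluster 2 had 2 higher (11.9%), Tlr9 and Unc93b1, and 2 lower (31.8%), or 1 with 0 read as 3 counts (20.9%), which is Tlr13. Clusters 1, 4 and 12 had none higher (3.7%, 3.77% and 3.7%) and had 6, 4 and 3 lower (35.7%, 40.4% and 21.7%).

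In the NK cell cluster 3 and in cluster 11, none was higher (5.83% and 6.63%) and 7 were lower (31.5% and 33.8%). Clusters 5, 9, 14 and 16 also had 7 lower (29.5%, 30.1%, 30.1% and 41.3%), and each had 1 higher, which was Rnaset2b in cluster 14 (22.1% of all genes higher) and Pld3 in clusters 5, 9 and 16 (20.8%, 13.3% and 16.6%). Cluster 13 had none higher (11%) and 5 lower (28.3%). Several of these lower members had no UMI. With 0 read as 3 counts, 5 were lower in each of clusters 5, 9 and 14 (15.1%, 17.5% and 14.8% of all genes), 6 in cluster 11 (22.8%) and 4 in cluster 13 (19%). In cluster 16 they were 3, Tlr7, Unc93b1 and Pld4 (13.6%), since a count of 0 there allows up to 14.1 CPM. Cluster 6, deposited as Macrophages, thus shared low levels in CPM of most of the 10 genes with the T and NK cell clusters. Its cells averaged 22031 UMIs, and per cell it had 1.67 UMIs of Unc93b1 and 0.911 of Pld4. Cluster 3 had 0.336 and 0.0876 per cell, and cluster 13 had 0.482 and 1.16. Cluster 6 held 8370 CPM of summed T cell markers, and the part of T cells in its low levels was not tested.

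The profiles of the 10 genes over the 20 clusters fell into a few sets. The clusters come from the same 2 libraries and differ in depth, so the correlations of log2(CPM + 0.5) are given as descriptions. Unc93b1 went with Pld4 (Pearson r 0.89) and Tlr7 (0.85), and Pld4 went with Tlr7 (0.79). Tlr8 and Tlr13 formed a pair, as did Rnaset2a and Rnaset2b (0.84). In CPM, Pld3 ran against Unc93b1 (-0.67) and Pld4 (-0.64). Clusters 5, 16 and 9 led for Pld3 in CPM but not in UMIs per cell. The correlations were not computed in UMIs per cell, so whether Pld3 runs against these genes on that scale was not tested. Correlations of Tlr9 rest on its 54 UMIs and are not read.

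**Figure D4:**
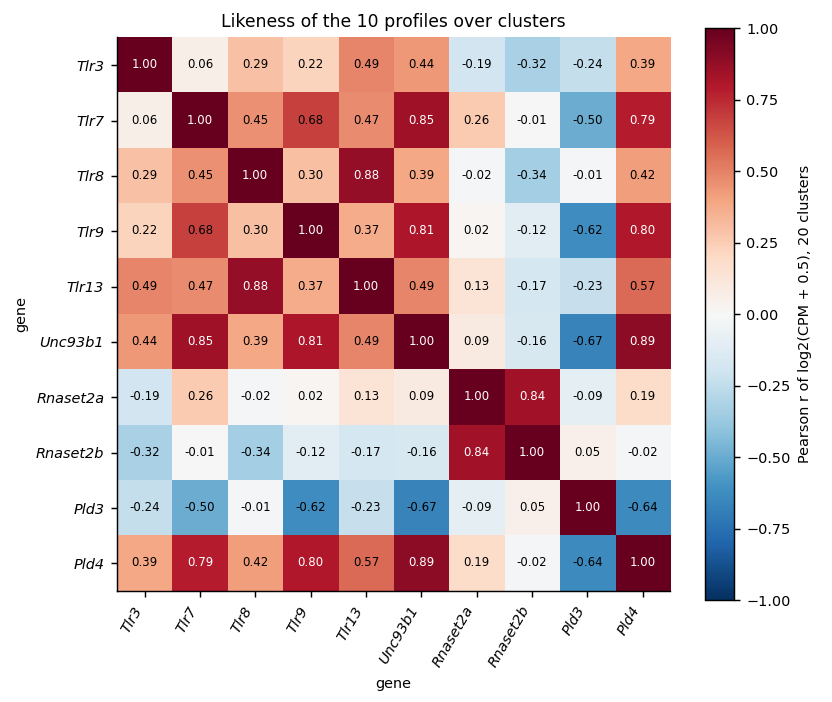
Pearson correlations of log2(CPM + 0.5) between each pair of the 10 genes over the 20 clusters, on a colour scale between -1 (blue) and 1 (red). Unc93b1, Pld4 and Tlr7 form 1 set (0.79 to 0.89), Tlr8 and Tlr13 another (0.88), and Pld3 is negative against Unc93b1 (-0.67) and Pld4 (-0.64). Correlations in UMIs per cell were not computed.

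Among all genes with at least 50 UMIs, those with the profile most like each of the 10 were named by the same correlation over 20 clusters. For Tlr7 these were Cybb, the catalytic subunit of the phagocyte NADPH oxidase (0.93), Ptprj (0.88) and Hpse (0.88). For Unc93b1 they were Ly86 (0.98), Plekhm3 (0.95) and Snx9 (0.94), and for Pld4 they were Unc93b1 itself (0.89), Ly86 (0.88) and Gm48065 (0.87). Ly86 encodes the partner of the Toll-like receptor relative Cd180. Tlr3 was closest to Gcsam (0.92), A530099J19Rik (0.89) and Gm30978 (0.88). Tlr8 was closest to Itgb5 (0.93), Hgf (0.91) and Ftl1-ps1 (0.91), and Tlr13 to Tnfaip2 (0.95), C5ar1 (0.94), the receptor of complement fragment C5a, and Igsf6 (0.94). Tlr9 was closest to Dnase1l3, a secreted nuclease of DNA (0.85), Ryr1 (0.85) and Napsa (0.85), on few UMIs. Rnaset2a and Rnaset2b were each other's closest (0.84), with Bscl2 (0.74) also named for Rnaset2a, and for Rnaset2b Atp1b1 (0.83) and Mmgt2 (0.81). Pld3 was closest to Rnf125 (0.91), Tpra1 (0.90) and Exoc2 (0.88). Several of these names depend on the measure. By Spearman correlation, Itgb5 was 0.76 with Tlr8 (rank 199 of all genes), Rnaset2b was 0.67 with Rnaset2a (rank 36), Atp1b1 was 0.59 with Rnaset2b (rank 521) and Tnfaip2 was 0.84 with Tlr13 (rank 71).

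The promoters of Pld4 and Tlr9 are shown because both hold the same motif. They are 300 bases of the RefSeq table for GRCm38.p6, 250 before and 50 after the start of the gene, on the plus strand. The submitters' notes name mm9, so the positions belong to the RefSeq table and not to the files. Of the 10 genes, 8 matched the table, all but Tlr7 and Unc93b1. The promoter of Pld4 is chr12:112760405-112760704 and that of Tlr9 is chr9:106222348-106222647, with matches to GAGGAAGT on either strand in capitals.
Pld4: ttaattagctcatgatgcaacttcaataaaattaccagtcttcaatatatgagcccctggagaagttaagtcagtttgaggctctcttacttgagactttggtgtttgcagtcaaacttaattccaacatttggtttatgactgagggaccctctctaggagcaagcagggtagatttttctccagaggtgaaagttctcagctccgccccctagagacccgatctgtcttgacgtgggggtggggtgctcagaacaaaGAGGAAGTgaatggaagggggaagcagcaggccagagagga
Tlr9: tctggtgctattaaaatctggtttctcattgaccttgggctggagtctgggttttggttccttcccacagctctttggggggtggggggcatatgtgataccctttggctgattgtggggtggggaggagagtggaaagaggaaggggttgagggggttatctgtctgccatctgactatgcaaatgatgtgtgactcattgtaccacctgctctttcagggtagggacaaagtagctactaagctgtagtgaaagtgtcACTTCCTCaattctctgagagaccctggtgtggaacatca
GAGGAAGT is a core at which PU.1, the factor encoded by Spi1, is known to bind. It was searched on both strands, starts at base 10 after the start of Pld4 and, on the opposite strand as ACTTCCTC, at base 11 after that of Tlr9, and occurs in 3.20% of the 32851 promoters of the table (1052). A composite element of ETS and IRF factors (GGAA, any 2 bases, GAAA), searched in the same way, was in no promoter of the 8 and in 2.72% of all. An interferon response element (GAAA, any 2 bases, GAAA) was in the promoter of Pld3 alone and in 3.44% of all. The 3 motifs can overlap each other, and no promoter of the 8 held more than 1 of them. A match is a description of letters and says nothing of binding.

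Other genes of the same pathway were read from lists in clusters 18 and 15, which had the most of the 10 genes at higher levels, and in cluster 10. Cluster 10 had 2 higher, as clusters 2, 7 and 19 did, and was taken for its larger median ratio. The background shares and medians given above for these clusters apply here too. Where a lower count in cluster 18 changes with 0 read as 3 counts, both are given. A median ratio at that reading is an upper bound, since genes with no UMI are given 3 counts. Of 16 adaptor and kinase genes, none was over 2-fold higher and 5 were lower in cluster 18 (4 with 0 read as 3 counts), while 3 were higher and none lower in each of clusters 15 and 10. Myd88, the adaptor of Tlr7, Tlr9 and Tlr13, reached 70.9 CPM (57.2 to 86.8) in cluster 15, was at 65.8 CPM in cluster 10, but had 35.0 CPM in cluster 18. Irak3, an inhibitory member of the kinase family below Myd88, had 51.8 CPM in cluster 15, 4.30-fold above the mean of the others, and 3.68 CPM in cluster 18. Cluster 18, with the highest Unc93b1 and Pld4 levels, was thus not high in the adaptor. The median ratio of the 16 genes was 0.820 in cluster 18, 1.5 in cluster 15 and 1.18 in cluster 10.

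Of 8 transcription factor genes, 3 were higher in each of clusters 18, 15 and 10, and 1, 2 and 0 were lower, with median ratios of 1.58, 1.07 and 0.943. Irf7, which drives interferon genes below Tlr7 and Tlr9, had 363 CPM (314 to 417) in cluster 18, 6.66-fold above the mean of the others, with 173 CPM in cluster 10 and 140 CPM in cluster 15. Irf8 had 2220 CPM and Tcf4, a lineage factor of plasmacytoid dendritic cells, had 1251 CPM in cluster 18. Both were in the lists of dendritic cell markers, but neither was among the leading markers that named clusters 17 and 18. Irf5, which acts below Tlr7 in monocytes and B cells, was highest in cluster 17 with 208 CPM (187 to 230) and had 152 CPM in cluster 15 and 118 CPM in cluster 18. Spi1 was highest in cluster 15 with 685 CPM and had 82.9 CPM in cluster 18.

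Of 11 folding and trafficking genes, 5 were higher and 2 lower in cluster 18, 2 and 0 in cluster 15, and 4 and 0 in cluster 10, with median ratios of 1.59, 1.34 and 1.84. Slc15a4, a lysosomal transporter needed for Tlr7 and Tlr9 responses, had 111 CPM (84.4 to 142) in cluster 18, 3.08-fold above the mean of the others, and 86.1 CPM in cluster 15. Slc29a3, a lysosomal nucleoside transporter, had 99.5 CPM in cluster 18 and 5430427O19Rik had 71.8 CPM. Hsp90b1, an endoplasmic reticulum chaperone that folds Toll-like receptors, had 1341 CPM in cluster 18, next to 1384 CPM in the low-UMI cluster 14. Slc15a3, a relative of Slc15a4, was instead highest in cluster 15 with 167 CPM and cluster 10 with 155 CPM. Rab7b had 272 CPM in cluster 17, the cluster high in Tlr3, and 105 CPM in cluster 10.

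The proteases that cut the receptors into their active form divided the same clusters. Of 5, 2 were higher and 2 lower in cluster 18 (1 lower, with a median ratio of 3.40, at 0 read as 3 counts), while 4 were higher and none lower in clusters 15 and 10, with median ratios of 1.56, 2.53 and 5.19. Ctsl had 1654 CPM in cluster 18, 13.5-fold above the mean of the others, against 310 CPM in cluster 10 and 124 CPM in cluster 15. Lgmn, the asparagine endopeptidase, was highest in cluster 10 at 766 CPM and had 32 UMIs in cluster 18. Ctss had 1074 CPM in cluster 18, 1662 CPM in cluster 15 and 2426 CPM in cluster 10. Ctsb had 1601, 1867 and 2263 CPM in those 3 clusters, in that order.

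Of 9 other nuclease genes with at least 20 UMIs, 1 was higher and 3 lower in cluster 18 (2 lower with 0 read as 3 counts), 2 and 0 in cluster 15, and 5 and 1 in cluster 10, with median ratios of 0.854, 1.71 and 2.14. Rnase6, a secreted ribonuclease of the pancreatic family, had 1398 CPM in cluster 18, 16.6-fold above the mean of the others, and at most 276 CPM elsewhere. Dnase1l3 was highest in the B cell clusters 2 and 4, with 70.1 and 58.3 CPM. Dnase2a, the lysosomal nuclease of DNA, had 80.1 CPM in cluster 10, 77.9 CPM in cluster 2 and 33.2 CPM in cluster 18. Rnh1, the cytosolic inhibitor of pancreatic-type ribonucleases, had 485 CPM in cluster 10, 4.58-fold above the mean of the others.

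The other Toll-like receptors, mostly of the cell surface, and their partners were mostly low or at 0 in cluster 18. Of 10 such genes, 2 were higher and 8 lower there (5 lower, with a median ratio of 0.609, at 0 read as 3 counts), while 4 were higher and 2 lower in cluster 15, and 6 were higher and 1 lower in cluster 10. Their median ratios were 0.151, 1.65 and 2.37. Tlr2, a receptor of bacterial lipoproteins, had 200 CPM in cluster 10, 169 CPM in cluster 15 and 1 UMI, or 1.84 CPM, in cluster 18. Tlr4, the receptor of lipopolysaccharide, had 26.8 CPM in cluster 7 and no UMI in cluster 18. The 2 higher in cluster 18 were Tlr12, an endosomal receptor of protozoan profilin, with 35.0 CPM from 19 UMIs, and Cd180, with 171 CPM, beside 170 CPM in cluster 2. Of 7 cytokine genes, 1 was higher and 6 lower in cluster 18 (5 lower, with a median ratio of 0.349, at 0 read as 3 counts), 3 and 4 in cluster 15, and 3 and 2 in cluster 10, with median ratios of 0.180, 0.247 and 0.845. Ifnb1 had 4 UMIs in all cells, and Ifna1, Ifna2 and Ifna4 had 0. Cxcl10, a chemokine induced by interferon, had 104 CPM in cluster 10 and no UMI in cluster 18.

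The treatment could be read only from how the cells of each library were spread over clusters, with 1 library per treatment and therefore no replicate check and no test. For each gene, the clusters over 2-fold above the mean of the others were grouped. The clusters high in Tlr13 (7, 10, 15 and 19) held 8.25% of nt-LNA cells (402 of 4871, exact Clopper-Pearson 95% interval 7.50 to 9.06%) and 18.3% of saline cells (501 of 2742, 16.8 to 19.8%), a ratio of 0.452 (exact conditional 95% interval 0.395 to 0.516). Those high in Tlr8 (0, 7, 10 and 15) held 19.7% of nt-LNA cells and 31.2% of saline cells, a ratio of 0.633 (0.577 to 0.695). Within the cells deposited as Macrophages, the ratio was 0.636 (0.556 to 0.726) for Tlr13 and 0.891 (0.812 to 0.978) for Tlr8. The nt-LNA library thus had a smaller share of its cells in the clusters high in Tlr13 on either base, with intervals that cover counting error only. Of the 4871 nt-LNA and 2742 saline cells, cluster 7 had 159 and 227, cluster 10 had 149 and 209, and cluster 15 had 72 and 60. Cluster 19 went the other way, with 22 and 5.

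Clusters high in the other genes showed less or changed with the base. Clusters 15 and 18, high in both Tlr7 and Pld4, held 2.28% of nt-LNA cells (1.88 to 2.74%) and 2.92% of saline cells (2.32 to 3.62%), a ratio of 0.781 (0.581 to 1.05). Clusters 17 and 19, high in Tlr3, held 1.70% of nt-LNA cells and 1.60% of saline cells, a ratio of 1.06 (0.728 to 1.57). Within the cells deposited as Macrophages their share was 5.20% of nt-LNA cells (83 of 1597) and 3.48% of saline cells (44 of 1265), a ratio of 1.49 (1.02 to 2.21). Cluster 17, which held most Tlr3 UMIs, had 61 nt-LNA and 39 saline cells. Cluster 19, with 11 Tlr3 UMIs, had 22 and 5 and was the more uneven. Clusters 5, 9 and 16, high in Pld3 in CPM, held 16.6% of nt-LNA cells and 10.2% of saline cells, a ratio of 1.64 (1.43 to 1.88). Within the cells deposited as T cells that ratio was 0.993 (0.865 to 1.14). Treatment, mice, sort and library cannot be told apart here, and whether any of the 10 genes had another level per cell under nt-LNA could not be read from counts that add both libraries.

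**Figure D5:**
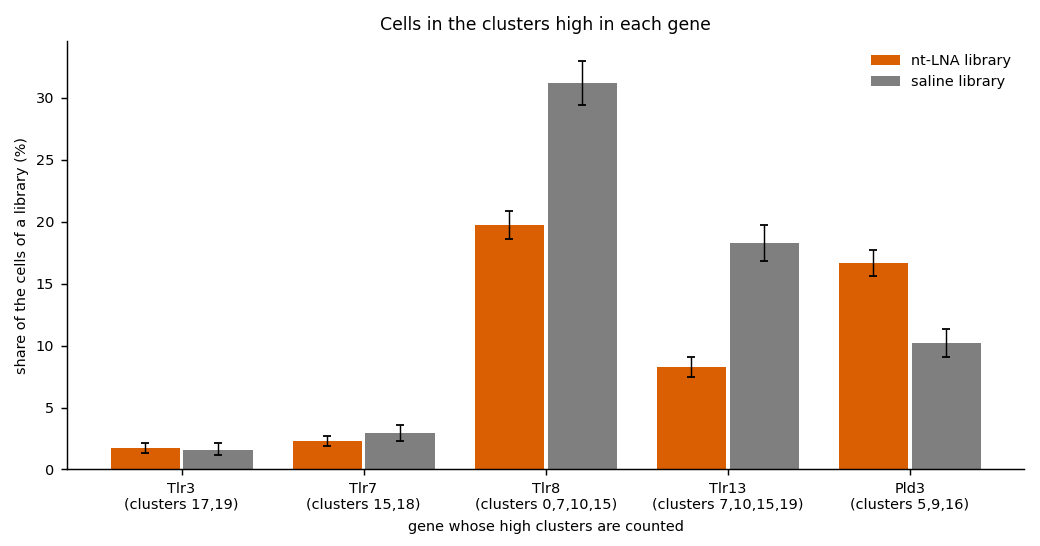
Share of the cells of each library, in percent with exact Clopper-Pearson 95% intervals, in the clusters over 2-fold above the mean of the others. The x axis gives Tlr3, Tlr7, Tlr8, Tlr13 and Pld3, with nt-LNA left of saline, and the other genes are not shown. The clusters high in Tlr13 hold 8.25% of nt-LNA cells and 18.3% of saline cells. Those high in Tlr7, which are also those high in Pld4, hold 2.28% and 2.92%, with overlapping intervals.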

How the data were processed

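For these single-cell 3′ RNA libraries, the submitters' processing notes name Cell Ranger 2.1.1, Seurat and the build mm9, without their roles. The deposited table gave counts of UMIs per gene and cluster, both libraries added together. The authors also deposited a score per gene and cluster, which equals log2(count + 1) times 1 factor per cluster and was used only to look up the highest clusters, and a table that gives each cell's library, cluster and cell type name. The authors' summary of clusters, with a percent of each library, a score and a p-value of unstated test for each cluster name, was used only to check the cells per cluster. The percent of mitochondrial UMIs and all CPM were computed here from the deposited counts. Libraries shared 2 barcodes. No doublets were removed here, since counts per cell were not used.

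The genes, lists, motifs and the rule for cluster names were chosen with earlier results of these data known. A cluster was named where at least 3 markers of a list were among its 50 leading genes with at least 50 UMIs and no other list had as many in the leading 10. Clusters with few UMIs per cell also needed a marker in the leading 10. Named genes were the 10 members, the 3 closest profiles of each (1 of them is not reported here), in each list the 2 largest ratios in clusters 18, 15 and 10 and the 2 with most UMIs, and 10 fixed genes. Ifnb1, Ifna1, Ifna2, Ifna4, Mrc1 and Stab2 were named after their values were seen, as were single clusters. No test or p-value was possible with 1 library per treatment. Intervals are exact at 95%, and a count of 0 allows up to 3 counts; counts of lower genes with 0 read as 3 counts were added after seeing the data. Alternatives were other scalings, UMIs per cell, pooled references, other fold limits and filters, Spearman correlations, a pseudocount of 5, leaving out clusters with over 5% mitochondrial UMIs, and shares within a deposited name. Python 3.11.15, numpy 2.4.6, pandas 2.3.3, scipy 1.17.1, matplotlib 3.10.9 and edgeR 4.0.16 (scaling factors only) were used, and the code was tested on simulated data.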

Additional observations from a re-analysis of the deposited data

How the results depend on the processing

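No paired analysis was possible because each treatment had 1 library and no result came from a test. The 6 genes over 2-fold higher in cluster 18 and the 5 in cluster 15 moved by at most 1.5 times under the alternatives run, with 4 in cluster 18 at a fold limit of 3 and 4 in cluster 15 with upper-quartile scaling, in UMIs per cell, without the clusters over 5% mitochondrial UMIs or at that limit. In cluster 10 the count was 6 in UMIs per cell and 5 at a fold limit of 1.5, against 2. With a count of 0 read as 3 counts, chosen after seeing the data, the lower members were 2 in cluster 18 against 4, 3 in cluster 16 against 7, 1 in cluster 2 against 2 and 0 in cluster 19 against 1. On UMIs per cell the ratios of Pld3 in cluster 5 (0.539) and Tlr9 in cluster 2 (0.968) reversed. The nt-LNA over saline share ratios without the clusters over 5% mitochondrial UMIs were 0.529 for Tlr13 and 0.742 for Tlr8. For Tlr9, left with clusters 15 and 18, the ratio was 0.915 (0.680 to 1.24). It reversed against 1.48, but its interval holds 1. For Unc93b1, against 1.75, and Rnaset2b, against 2.02, only cluster 18 was left. Both thus had the same ratio, 1.29 (0.732 to 2.33). For Pld3 only cluster 9 was left, with a ratio of 1.30. Within the deposited name the ratios were 0.636 for Tlr13, 0.891 for Tlr8, and 1.10 for the clusters high in Tlr7 and Pld4 against 0.781. For Pld3 the ratio was 0.993 (0.865 to 1.14), which reversed but has an interval that holds 1. The cause was not tested. Within the deposited name the ratio for Tlr3 was 1.49 against 1.06. Of 30 correlations recomputed, 4 moved by over 0.1 downward. Of 20 ranks recomputed, 5 moved, and in UMIs per cell cluster 15 was rank 3 for Tlr8 and for Tlr13. The deposited score put Rnaset2a, Rnaset2b and Pld3 highest in cluster 16 and the other 7 genes where CPM did. Depth limits Tlr9 and Tlr8, whose 54 and 180 UMIs leave the order of clusters unresolved, and cluster 18, which rests on 59 cells.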

Other observations

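Genes known to take up or move oligonucleotides were read in the same clusters. Of 11 such genes with at least 20 UMIs, 2 were over 2-fold higher and 6 lower in cluster 18 (4 lower, with a median ratio of 0.669, at 0 read as 3 counts), 2 and 5 in cluster 15, and 5 and 3 in cluster 10, with median ratios of 0.125, 0.637 and 1.04. Of all genes with at least 20 UMIs, 9.57% were higher and 36.2% lower in cluster 18 (14.9% lower at 0 read as 3 counts). The shares were 7.46% and 29.4% in cluster 15, and 7.37% and 23% in cluster 10. Stab1, a scavenger receptor that binds phosphorothioate oligonucleotides, had 107 CPM in cluster 0, 54.8 CPM in cluster 10 and 1.84 CPM in cluster 18. Mrc1, the mannose receptor, had 246 CPM in cluster 0, and Msr1, the class A scavenger receptor, had 132 CPM in cluster 10 and 124 CPM in cluster 19. The cluster with the highest Tlr7 level thus had 1 UMI of Stab1 and none of Msr1. Cd36 and Scarb1, lipid scavenger receptors, were high in cluster 15 at 157 and 69.3 CPM. Grn, the progranulin gene, had 1002 CPM in cluster 18, 7.22-fold above the mean of the others. Sidt2, a lysosomal membrane protein linked to RNA transport, was highest in CPM in the low-UMI cluster 5 (252 CPM, 218 to 289), the same cluster that led for Pld3. Stab2, a relative of Stab1, had 127 CPM in cluster 16 from 27 UMIs.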
